A study of Homo sapiens with 14 samples.

Results

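Expression was compared between 2 sets of 4 arrays titled A, all from WI-38, human lung fibroblasts that keep a diploid karyotype. The cells had been immortalized with hTERT, the gene of telomerase's catalytic subunit. These 8 arrays are part of a series of 14. The MKI67-high set holds the arrays titled A58 replicate 2, A67 replicate 1, A67 replicate 2 and A95 replicate 1, and the MKI67-low set holds A39 replicate 2, A50 replicate 1, A50 replicate 2 and A58 replicate 1. Letter and number stand for the hTERT line and its passage, and the sources used here do not say what the letter means. All 8 arrays carry the hTERT-immortalized label, and by the growth protocol every culture was passaged weekly at a fixed seeding number in the same medium. The other 6 arrays are labelled as 2 of primary cells at passage 19, A39 replicate 1 at passage 39, A95 replicate 2 at passage 95, and 2 of an hTERT line B at passage 96.

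The members were chosen by array similarity over all rows and by the level of MKI67, divided at 10 log2, and not by label. Labels and sets therefore cross: A58 has an array in each set. Every row of the table entered that choice, so the differences between the sets are given as a description, without a test. Growth rate was not measured, and the sets are named for MKI67, not as slow or fast. The MKI67-high arrays carry passages 58, 67 and 95 and the MKI67-low arrays passages 39, 50 and 58, so set and passage cannot be told apart.

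Cells that enter the cycle first transcribe genes for DNA replication and nucleotide supply, driven by E2F factors once cyclin-dependent kinases have inactivated RB, and later the genes of the mitotic apparatus, which the DREAM complex represses in resting cells. The inhibitors p16, from CDKN2A, and p21, from CDKN1A, block those kinases. Fibroblasts that stop dividing in culture are known for high p16 and p21, loss of lamin B1 and altered secretion of matrix. In RNA from a bulk culture, fewer cycling cells and less of these RNAs per cell cannot be told apart.

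The labels of the arrays may be displaced by one position, and every passage given here is the labelled one. In the order of deposition, each of these arrays forms a close pair with a neighbour of another label. The pairs were A39 replicate 2 with A50 replicate 1 and A50 replicate 2 with A58 replicate 1 in the MKI67-low set, and A58 replicate 2 with A67 replicate 1 and A67 replicate 2 with A95 replicate 1 in the MKI67-high set. Pearson correlations over 28869 rows were 0.988 to 0.992 within these 4 pairs, and 179 to 309 rows differed by at least 1 log2. Arrays from different pairs of the MKI67-high set correlated at 0.983 to 0.988, those of the MKI67-low set at 0.976 to 0.977, and arrays of opposite sets at 0.958 to 0.981. The 3 pairs that share a label correlated at 0.977 to 0.983, with 454 to 941 rows apart by 1 log2. Of the 8 arrays, 7 were closest to their neighbouring partner and 0 to the array of the same label. The exception, A95 replicate 1, was closest to A67 replicate 1. TERT, the introduced gene, went against 1 label: it read 7.07 in primary replicate 1 but 11.70 in the array labelled primary replicate 2, next to 11.62 in A39 replicate 1, with which that array correlated at 0.993. The other hTERT arrays read 10.67 to 12.18. Nothing in the labels settles a displacement, and the titles are used here as given.

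**Figure D1:**
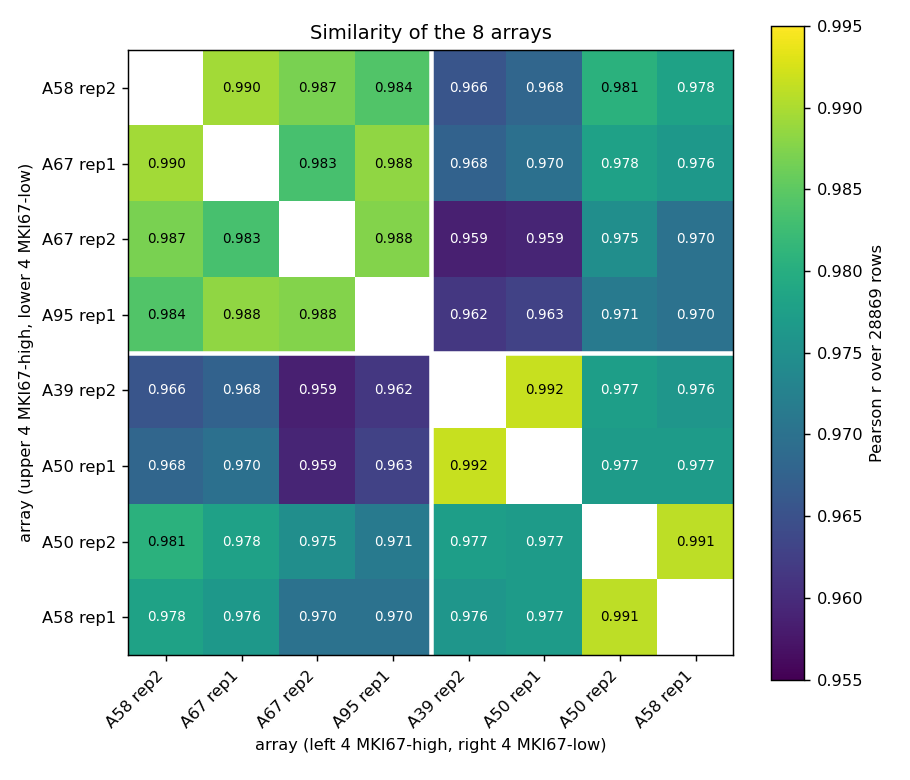
Pearson correlation between each 2 of the 8 arrays over 28869 rows, with the MKI67-high arrays above and to the left of the white lines. Neighbouring pairs reached 0.988 to 0.992 and arrays of opposite sets 0.958 to 0.981.

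The MKI67-low set was the less uniform. Its 2 pairs differed by at least 1 log2 at 231 genes upward and 218 downward, the second pair against the first. The first MKI67-high pair differed as widely from the second MKI67-low pair, at 231 genes upward and 221 downward, while the 2 MKI67-high pairs differed at 70 genes upward and 37 downward. For part of the genes below the steps are given besides the difference between the set means: between the pairs of the MKI67-low set, between the sets, or between the pairs of the MKI67-high set. Values are log2 as deposited, and those of 4 arrays follow the order of the titles above.

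The 4 genes that mark cycling and arrest were read first. MKI67, a protein of proliferating nuclei, read 10.82, 10.62, 10.91 and 10.88 in the MKI67-high arrays, against 8.79, 8.84, 9.53 and 9.40 in the MKI67-low arrays. The values nearest the dividing line were 10.62 inside the MKI67-high set and 9.53 inside the MKI67-low set. The 6 arrays outside the sets lay between 10.13 and 10.74, so the 4 MKI67-low arrays were the only ones of the 14 below 10. MCM10, a replication initiation factor, read 9.30, 9.29, 10.23 and 10.10 in the MKI67-high arrays and 7.93, 7.89, 7.94 and 7.77 in the MKI67-low arrays. The MKI67-low arrays were alike, while the second MKI67-high pair stood 0.87 above the first.

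CDKN2A stood the other way. It read 8.10, 7.85, 6.33 and 6.54 in the MKI67-high arrays and 9.59, 9.30, 9.46 and 9.42 in the MKI67-low arrays, a difference of -2.24, or 4.72-fold lower. It was flat across the MKI67-low pairs and then lower by about the same amount at each of the next steps, -1.47 between the sets and -1.54 within the MKI67-high set. CDKN2B, its neighbour on chromosome 9 and also a kinase inhibitor, did not follow: 9.42, 9.70, 9.13 and 9.73 in the MKI67-high arrays against 9.68, 9.63, 9.41 and 9.57 in the MKI67-low arrays, which overlap. CDKN1A read 10.90, 10.66, 10.38 and 10.33 in the MKI67-high arrays and 11.70, 11.65, 11.52 and 11.48 in the MKI67-low arrays, without overlap and 2.03-fold lower.

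**Figure D2:**
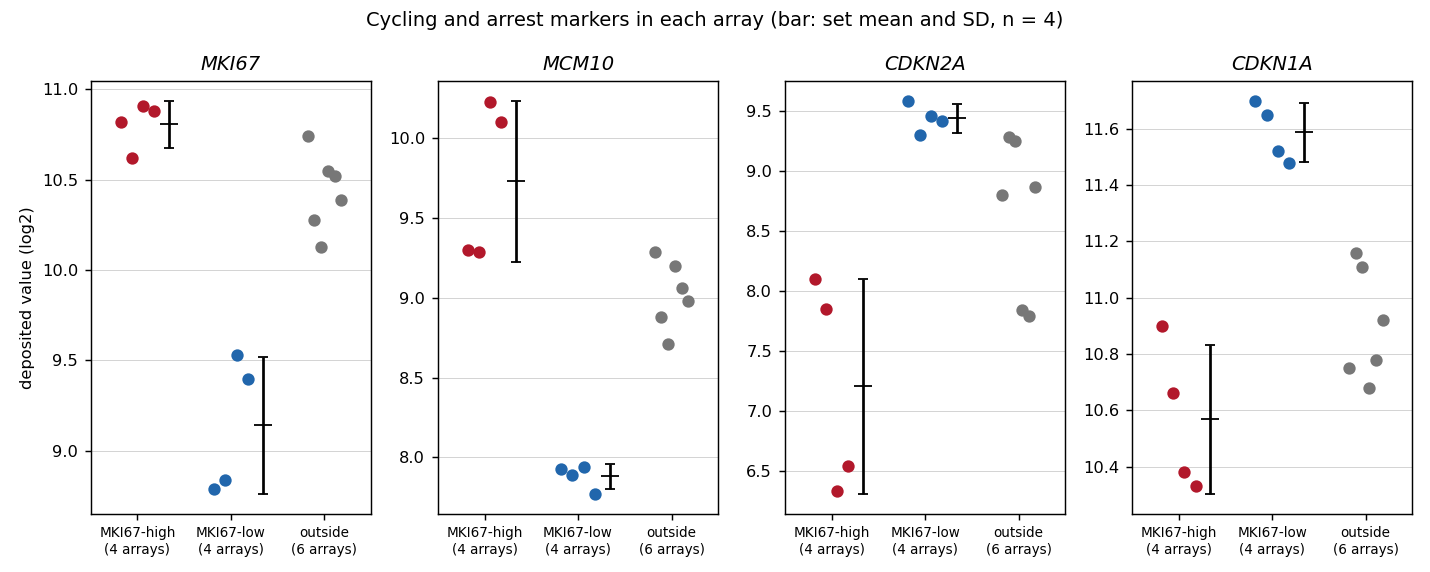
Deposited log2 value of MKI67, MCM10, CDKN2A and CDKN1A in each of the 14 arrays, with the mean and SD (n = 4) of each set as a bar. The arrays of a set form close pairs and carry several labels, so this SD is no spread between replicates of a condition. MKI67 spans 10.62 to 10.91 in the MKI67-high set and 8.79 to 9.53 in the MKI67-low set, and CDKN2A 6.33 to 8.10 against 9.30 to 9.59.

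Over the whole array, 18377 genes could be named, with 1 row each. In the MKI67-high set 2369 of them, 12.9%, were higher and 2426, 13.2%, were lower with no overlap between the 4 and 4 arrays. With a difference of at least 1 log2 besides, 403 genes were higher, 2.19%, and 255 were lower, 1.39%. Over all rows, named or not, these counts were 506 and 322. The median difference over genes was -0.027. Since similarity over all rows formed the sets, these shares are no measure of an effect. The arrays of a set also form close pairs and are not replicates of a condition. They serve as the level that the counts of the gene lists below are set beside. Of the 403 higher genes, 214 differed by at least 1 log2 at the step between the sets, 34 did so within the MKI67-low set and 12 within the MKI67-high set. Of the 255 lower genes, 124 did so between the sets, 69 within the MKI67-low set and 10 within the MKI67-high set, and for 83 the step within the MKI67-low set was the larger one, against 40 of the higher genes.

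Genes of DNA replication and the G1/S transition were higher in the MKI67-high set with few exceptions. Of 40 measured, 36 were higher and 0 lower without overlap, and the median difference was 1.47. ORC1, the largest subunit of the origin recognition complex, read 8.87, 8.99, 9.60 and 9.50 in the MKI67-high arrays and 7.29, 7.18, 7.47 and 7.12 in the MKI67-low arrays. Of primase, which starts each new strand, the catalytic subunit PRIM1 read 10.11, 10.30, 10.74 and 10.84 in the MKI67-high arrays and 8.54, 8.60, 8.63 and 8.33 in the MKI67-low arrays, a difference of 1.97, while that of the regulatory subunit PRIM2 was 0.47. The 6 subunits of the replicative helicase, MCM2 to MCM7, differed by 1.32 to 1.61, and the origin firing factor CDC45 by 1.95. CCNE2 differed by 1.97, and CCNE1, the other cyclin of the G1/S transition, by -0.06 with overlapping sets. The activating factors E2F1 and E2F2, at 0.38 and 0.06, overlapped as well.

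Nucleotide synthesis and DNA repair went with replication. Of 20 genes of nucleotide synthesis 17 were higher and 0 lower without overlap, with a median of 0.78. RRM2, the regulated subunit of ribonucleotide reductase, read 11.88, 11.93, 12.18 and 12.19 in the MKI67-high arrays and 10.23, 10.38, 11.01 and 10.92 in the MKI67-low arrays. TK1 and TYMS, which make thymidine nucleotides, differed by 1.39 and 1.36, and the mitochondrial folate enzymes MTHFD2 and SHMT2, by -0.02 and 0.04, were about level. Of 20 genes of DNA repair and checkpoints 18 were higher and 0 lower without overlap, with a median of 1.10. EXO1, a nuclease of mismatch and break repair, was 3.99-fold higher, at 9.77, 9.65, 10.49 and 10.42 in the MKI67-high arrays and 8.08, 8.06, 8.13 and 8.08 in the MKI67-low arrays. The damage kinases differed unevenly, with ATR at 0.39 and CHEK2 at 0.01.

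Replication-dependent histones, which are made only while DNA is copied, were higher for 34 of 35 genes without overlap, with a median of 1.59. H1-1, a linker histone, read 10.39, 10.19, 11.43 and 11.33 in the MKI67-high arrays and 7.98, 8.32, 8.94 and 8.66 in the MKI67-low arrays, 5.13-fold apart. H4C4 was 4.52-fold and H2AC12 4.45-fold higher. The remaining gene, H4C1, differed by -0.32. These genes lie in clusters of near-identical copies, so how the array's probes divide the signal among them is uncertain.

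Genes of mitosis and G2/M were higher for 47 of 48 measured without overlap, with a median of 1.44. MKI67, which divided the sets, is among the 47, so its own lack of overlap was fixed in advance. The kinetochore complex NDC80 illustrates the list. SPC25 read 9.81, 9.74, 10.21 and 10.19 in the MKI67-high arrays and 7.77, 7.75, 8.36 and 8.35 in the MKI67-low arrays. The NDC80 subunit itself differed by 1.85 and NUF2 by 1.74, but the row of SPC24, the last subunit, by 0.02 with overlapping sets, and SPC24 was the exception among the 48. PLK4, the kinase that duplicates centrioles, differed by 1.88, NCAPH, a subunit of condensin I, by 1.86, and the transcription factor FOXM1 by 1.48. The smallest differences among the 47 were those of the phosphatase CDC25B, at 0.58, and the checkpoint protein BUB3, at 0.72.

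Both the S-phase and the mitotic list took their largest step between the sets, and the difference between the lists was not tested. Between the pairs of the MKI67-low set, replication genes had a median step of 0.02 and mitotic genes of 0.40. At the step between the sets the medians were 1.14 and 1.05, and between the pairs of the MKI67-high set 0.55 and 0.32. MKI67, a member of the mitotic list, had steps of 0.65, 1.25 and 0.18, and MCM10, of the replication list, of -0.05, 1.44 and 0.87.

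Promoters of both groups were read because expression took no part in that measure. A promoter here is the 250 bases before and 50 after a gene's start in RefSeq, on GRCh38.p14, and 14210 of the array's genes had one. The motifs searched were the cell cycle homology region TTTGAA, a mitotic promoter element, the CCAAT box CCAAT, and the E2F motif GCGGGAA, each on both strands and counted even where they overlap one another. TTTGAA occurred in 67.5% of 40 mitotic promoters and 0% of 35 replication promoters, against 11.9% of all the array's genes. GCGGGAA had the opposite order, 10.0% of mitotic and 42.9% of replication promoters, against 8.95% of all. CCAAT occurred in 70.0% of mitotic, 57.1% of replication and 90.3% of 31 histone promoters, against 36.3% of all. These are counts of letters, and a match is not a shown binding site.

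Among the 403 genes higher by at least 1 log2, 329 had a promoter in the table, with TTTGAA in 31.0%, CCAAT in 55.0%, GCGGGAA in 20.1% and both TTTGAA and CCAAT in 20.1%. Among the 255 lower genes, 183 had one, with 13.1%, 35.5%, 7.65% and 4.37%, against 4.86% of all genes for the joint occurrence. Collagen promoters, 17 in number, held TTTGAA in 11.8%. The 403 genes were chosen by expression, and they include 34 replication, 43 mitotic and 26 histone genes. Their shares therefore partly repeat those of these lists. The promoters of 4 genes described above are shown because they hold these elements in different combinations, 5′ to 3′ on the gene's strand, with matches of the motifs on either strand in capitals. All 4 genes lie on the minus strand, MKI67 at chr10:128126374-128126673, SPC25 at chr2:168890381-168890680, PRIM1 at chr12:56752274-56752573 and H1-1 at chr6:26017738-26018037.
MKI67: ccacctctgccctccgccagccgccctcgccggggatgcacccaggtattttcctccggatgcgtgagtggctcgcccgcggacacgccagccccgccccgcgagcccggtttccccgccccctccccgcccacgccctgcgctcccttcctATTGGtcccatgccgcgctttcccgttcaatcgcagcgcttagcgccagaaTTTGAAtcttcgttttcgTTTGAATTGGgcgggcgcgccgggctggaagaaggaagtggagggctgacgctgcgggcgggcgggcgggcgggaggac
SPC25: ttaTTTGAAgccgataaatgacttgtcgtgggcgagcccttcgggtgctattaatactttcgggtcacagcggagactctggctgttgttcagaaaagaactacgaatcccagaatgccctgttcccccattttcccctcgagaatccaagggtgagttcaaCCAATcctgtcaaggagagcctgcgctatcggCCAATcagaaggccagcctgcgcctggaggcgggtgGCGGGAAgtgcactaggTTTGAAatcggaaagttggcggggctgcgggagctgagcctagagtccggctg
PRIM1: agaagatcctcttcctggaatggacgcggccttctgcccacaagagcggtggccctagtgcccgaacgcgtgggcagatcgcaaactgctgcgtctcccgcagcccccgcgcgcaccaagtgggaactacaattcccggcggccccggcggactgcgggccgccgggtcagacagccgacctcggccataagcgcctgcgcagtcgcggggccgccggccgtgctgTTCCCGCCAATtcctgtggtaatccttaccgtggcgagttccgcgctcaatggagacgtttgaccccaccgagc
H1-1: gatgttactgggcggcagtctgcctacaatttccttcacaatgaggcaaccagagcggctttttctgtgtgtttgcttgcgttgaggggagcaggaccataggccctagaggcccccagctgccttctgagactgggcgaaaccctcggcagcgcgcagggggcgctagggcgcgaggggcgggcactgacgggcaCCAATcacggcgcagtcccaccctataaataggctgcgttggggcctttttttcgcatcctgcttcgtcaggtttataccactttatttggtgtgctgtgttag
MKI67 held 2 matches of TTTGAA and 2 of CCAAT, and SPC25 held 2, 2 and 1 of GCGGGAA. PRIM1 held 1 CCAAT and 1 GCGGGAA without TTTGAA, and H1-1 held 1 CCAAT alone.

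Kinase inhibitors, cyclins and the RB family divided evenly. Of 21 genes 8 were higher and 8 lower without overlap, with a median of -0.07. RBL1, which encodes the pocket protein p107, was 3.40-fold higher, at 9.80, 9.74, 10.61 and 10.59 in the MKI67-high arrays and 8.26, 8.40, 8.64 and 8.38 in the MKI67-low arrays. The repressor E2F7 differed by 1.35, E2F8 by 1.24, CDK2 by 0.90, CDK4 by 0.67 and RB1 by 0.49. The kinase CDK6 went the other way, by -0.58 without overlap. D-type cyclins were lower, with CCND1 at -0.35, CCND2 at -0.52 and CCND3 at -0.64. CDKN1B, which encodes the inhibitor p27, was higher, by 0.75, so the inhibitors had no common direction. CDKN2C had no row with that symbol alone.

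Nuclear lamina and chromatin proteins that senescent cells are known to lose were higher, 15 of 17 without overlap and 0 lower, with a median of 0.97. LMNB1, which encodes lamin B1, read 10.46, 10.40, 11.06 and 11.03 in the MKI67-high arrays and 8.99, 9.01, 9.22 and 9.08 in the MKI67-low arrays, 3.17-fold higher. HELLS, a chromatin remodeller needed for DNA methylation, differed by 1.83, HMGB2 by 1.60 and EZH2, the methyltransferase of Polycomb, by 1.51. LMNA, for lamins A and C, differed by 0.28.

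The study concerns DNA methylation, and 15 genes of its enzymes and readers were listed. DNMT1, which copies methylation onto new strands, read 10.62, 10.41, 10.92 and 10.86 in the MKI67-high arrays and 9.88, 9.90, 9.64 and 9.51 in the MKI67-low arrays, 1.96-fold higher. Its cofactor UHRF1 differed by 1.30 on the brighter of its 2 rows and by -0.19 on the other. DNMT3B differed by 0.38 without overlap, and DNMT3A, TET2 and TET3 by -0.24, -0.30 and -0.14 with overlap. Of the 15 genes, 5 were higher and 0 lower without overlap, with a median of 0.15. DNMT1, UHRF1 and HELLS are also in the chromatin list.

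**Figure D3:**
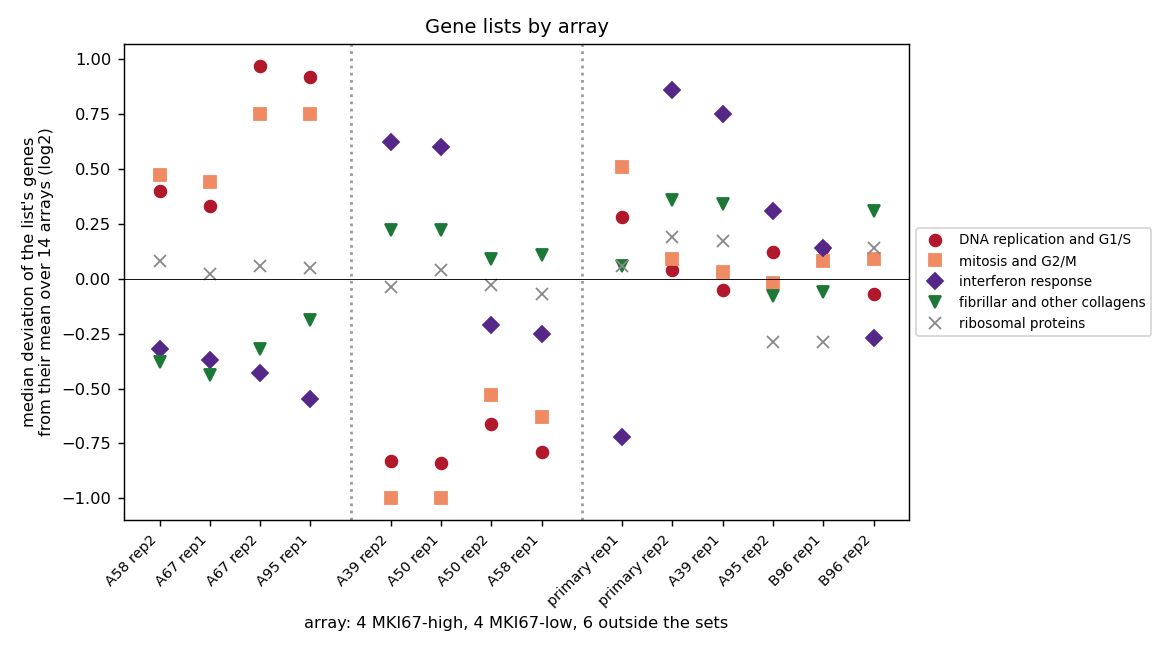
Median deviation of 5 gene lists from their genes' means over the 14 arrays (log2), by array, with the MKI67-high arrays on the left, the MKI67-low arrays next and the 6 arrays outside the sets on the right. Replication genes lay at 0.33 to 0.97 in the MKI67-high arrays and -0.84 to -0.66 in the MKI67-low arrays, and interferon genes, among these 8 arrays, stood above 0 only in the first MKI67-low pair, at 0.60 to 0.62.

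Genes of the response to amino acid shortage and unfolded proteins were mostly lower in the MKI67-high set, 14 of 26 without overlap against 2 higher, with a median of -0.46. NUPR1, a stress-induced chromatin protein, read 7.41, 7.44, 7.76 and 7.87 in the MKI67-high arrays and 9.75, 9.84, 8.88 and 8.85 in the MKI67-low arrays. CHAC1, which degrades glutathione, differed by -1.61, DDIT4, an inhibitor of mTORC1, by -1.60, and ASNS, the asparagine synthetase, by -1.16. ATF4, the factor that drives many of these genes, differed by 0.26 and the chaperone HSPA5 by 0.02, both with overlap. PPP1R15A and CTH were the 2 higher genes, by 0.39 and 0.45.

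Of 24 collagens 10 were lower and 0 higher without overlap, with a median of -0.50. COL3A1, a fibrillar collagen, read 10.00, 10.18, 10.64 and 10.61 in the MKI67-high arrays and 12.05, 12.07, 11.72 and 11.69 in the MKI67-low arrays, 2.88-fold lower. The second MKI67-high pair was nearer the MKI67-low set than the first, and the same held for COL5A1 and COL8A1, which stepped by -1.05 and -0.99 between the sets and by 0.34 and 0.44 within the MKI67-high set. COL1A1 differed by -0.58 and COL1A2 by -0.75.

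Of 36 proteoglycans and matrix glycoproteins 14 were lower and 2 higher without overlap, with a median of -0.27. Lumican, from LUM, read 10.33, 10.06, 9.95 and 9.91 in the MKI67-high arrays and 10.91, 11.01, 11.91 and 11.87 in the MKI67-low arrays. MFAP4, of the elastic fibre, differed by -1.49, biglycan, from BGN, by -1.36 and EFEMP1 by -1.19. The higher genes were VCAN, at 0.76, and OGN, at 0.40. 

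Contractile genes were lower for 11 of 18 without overlap and higher for 1, with a median of -0.41. ACTA2, smooth muscle actin, read 11.09, 10.94, 12.40 and 12.40 in the MKI67-high arrays and 12.56, 12.60, 12.47 and 12.50 in the MKI67-low arrays. Its difference of -0.83 thus lay in the first MKI67-high pair, and the second stood just under the lowest MKI67-low array. TAGLN differed by -0.88 with no such return, at 11.26, 11.18, 11.41 and 11.42 against 12.17, 12.03, 12.35 and 12.24 in the MKI67-low arrays.

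Among ligands and effectors of TGF-beta, 4 of 20 were lower and 0 higher without overlap, with a median of -0.02. The ligand TGFB2 read 6.45, 6.66, 6.79 and 6.56 in the MKI67-high arrays and 9.90, 9.72, 7.88 and 8.05 in the MKI67-low arrays, 4.83-fold lower, while the ligands TGFB1 and TGFB3 differed by -0.04 and -0.19 with overlap. The effector SMAD3 differed by -0.68. Of 11 genes of the insulin-like growth factor axis 4 were lower and 0 higher without overlap, with a median of -0.21. The 4 were binding proteins: IGFBP4 by -0.94, IGFBP7 by -0.76, IGFBP3 by -0.64 and IGFBP5 by -0.61. The binding proteins IGFBP1 and IGFBP2 differed by -0.09 and -0.21 with overlap.

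Proteases of the matrix and their inhibitors were lower for 9 of 22 and higher for 1, with a median of -0.38. ADAMTS5, which cleaves aggrecan and versican, read 6.99, 6.79, 6.42 and 6.32 in the MKI67-high arrays and 9.63, 9.45, 9.30 and 8.96 in the MKI67-low arrays, 6.52-fold lower. The inhibitor TIMP3 was 4.11-fold lower, by -2.04 on 1 row and -1.60 on its other row. MMP2 differed by -0.97 and MMP14, which activates its protein, by -0.46.

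The secreted factors known from senescent cells were lower about as often as all genes. Of 24 genes 3 were lower without overlap, or 12.5% against 13.2% of all genes. In the other direction 0 were higher, against 12.9% of all genes, and the median was -0.15. FGF7, a growth factor for epithelium, read 9.07, 9.02, 9.12 and 9.11 in the MKI67-high arrays and 10.61, 10.58, 10.13 and 10.08 in the MKI67-low arrays. VEGFA differed by -0.87 and TNFRSF11B by -0.33. IL6, singled out after its values were seen, read 6.19, 6.55, 7.25 and 6.87 in the MKI67-high arrays and 11.06, 11.08, 6.97 and 6.77 in the MKI67-low arrays. Among the 8 arrays it was high in 1 pair only, and its sets overlap. Outside the sets it read 10.61 in primary replicate 2, 10.29 in A39 replicate 1, 10.54 in A95 replicate 2 and 10.56 in B96 replicate 1. Primary replicate 1 and B96 replicate 2 read 7.59 and 7.96. The chemokines CXCL1, CXCL2 and CCL2 differed by 0.04, -0.18 and -0.11.

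Among the 8 arrays, the interferon response differed mainly within the MKI67-low set. Of 27 genes 11 were lower and 0 higher in the MKI67-high set without overlap, with a median of -0.55, but the median step was -0.84 between the MKI67-low pairs, -0.13 between the sets and -0.11 between the MKI67-high pairs. IFIT1, which binds foreign RNA, read 8.02, 7.87, 7.85 and 7.63 in the MKI67-high arrays and 10.91, 10.93, 8.70 and 8.55 in the MKI67-low arrays. IFITM1, which blocks viral entry, read 6.29, 5.80, 5.95 and 5.70 in the MKI67-high arrays and 9.90, 10.07, 7.13 and 7.06 in the MKI67-low arrays. Among the 8 arrays, A39 replicate 2 and A50 replicate 1 were the high ones in both genes. Outside the sets, primary replicate 2 and A39 replicate 1 were as high, at 10.82 and 10.81 for IFIT1 and 10.62 and 10.45 for IFITM1. The other outside arrays read 7.17 to 9.06 and 6.70 to 8.06. IFI44L stepped by -2.54 within the MKI67-low set and -0.69 between the sets, while ISG15, a ubiquitin-like effector, differed by -0.14 with overlap.

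Antigen presentation by MHC class I had median steps of -0.19 between the MKI67-low pairs, -0.15 between the sets and -0.23 between the MKI67-high pairs. Of 8 genes 3 were lower without overlap and 0 higher, with a median of -0.43. B2M, the light chain of class I molecules, read 11.60, 11.57, 11.56 and 11.59 in the MKI67-high arrays and 12.23, 12.31, 12.15 and 12.12 in the MKI67-low arrays, with its step of -0.55 between the sets. The peptide transporter TAP1 differed by -0.77 and its partner TAPBP by -0.61. PSMB9, a subunit of the immunoproteasome, read 8.64, 8.75, 8.22 and 8.29 in the MKI67-high arrays and 9.60, 9.58, 8.70 and 8.56 in the MKI67-low arrays, so its largest step lay within the MKI67-low set and its sets overlap.

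Lysosome and autophagy genes were lower for 11 of 18 without overlap and higher for 1, with a median of -0.36. GABARAPL1, of the autophagosome, read 10.15, 10.16, 9.50 and 9.35 in the MKI67-high arrays and 11.63, 11.68, 11.69 and 11.75 in the MKI67-low arrays. A near-identical copy, GABARAPL3, makes that row uncertain. GLB1, the lysosomal beta-galactosidase used as a stain for senescence, differed by -0.62 and cathepsin B, from CTSB, by -0.62. Cathepsin K, from CTSK, was the higher gene, by 0.81.

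Sterol and sugar metabolism split by gene. Of 16 cholesterol genes 4 were lower and 2 higher, with a median of -0.09. DHCR7, which makes cholesterol from its last precursor, read 7.54, 7.52, 7.55 and 7.39 in the MKI67-high arrays and 9.77, 9.59, 9.02 and 9.11 in the MKI67-low arrays, 3.66-fold lower, while SQLE differed by -0.33 and FDPS by 0.40. Of 24 genes of glycolysis and hypoxia 6 were lower and 4 higher, with a median of -0.05. ALDOC, NDRG1 and the glucose transporter SLC2A1 differed by -1.07, -0.94 and -0.62, and ENO1, TPI1 and LDHA by 0.32, 0.28 and 0.19. GAPDH differed by 0.05 with overlap.

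Of 18 genes of Wnt ligands and antagonists 16 had a lower mean in the MKI67-high set and 2 a higher one, with a median of -0.27. Over all 18377 genes, 10129 had a lower mean and 8182 a higher one. Without overlap 3 Wnt genes were lower, or 16.7% against 13.2% of all genes, and 0 were higher. WNT5A, a ligand of the noncanonical branch, was among the lower, at -1.33. PDGFD, a ligand of the receptor that PDGFRB encodes, read 4.61, 4.77, 4.70 and 4.80 in the MKI67-high arrays and 8.69, 8.71, 5.89 and 6.11 in the MKI67-low arrays, and PDGFRB itself differed by -0.77. FGF9 differed by 1.10. Of the 21 genes of that list 4 were higher without overlap, or 19.0%, and 5 lower, or 23.8%, with a median of -0.19. Of 14 integrins 3 were higher, or 21.4%, led by ITGA6 at 0.85. The 4 lower ones, or 28.6%, were led by ITGA5 at -0.70, and the median was -0.19. Over all genes the shares were 12.9% higher and 13.2% lower.

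Germline and position genes were near the background. Of 22 germline and cancer-testis genes 2 were higher and 2 lower without overlap, or 9.09% each, with a median of 0.03. Over all genes the shares were 12.9% and 13.2%. SSX1, normally confined to testis, read 7.90, 7.63, 8.96 and 8.66 in the MKI67-high arrays and 6.04, 5.94, 6.55 and 6.49 in the MKI67-low arrays, and near-identical SSX genes make the row uncertain. MAGEC2 read 6.04, 6.04, 7.43 and 7.27 in the MKI67-high arrays and 5.84, 5.93, 5.97 and 5.77 in the MKI67-low arrays, so it stood out in the second MKI67-high pair. Of 21 factors of lung mesenchyme and body position 1 was higher, FOXP1 by 0.44, and 1 lower, FOXF1 by -0.78, with a median of 0.12. Ribosomal proteins were higher for 5 of 18 and lower for 0, by 0.06 to 0.16, with a median of 0.07.

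**Figure D4:**
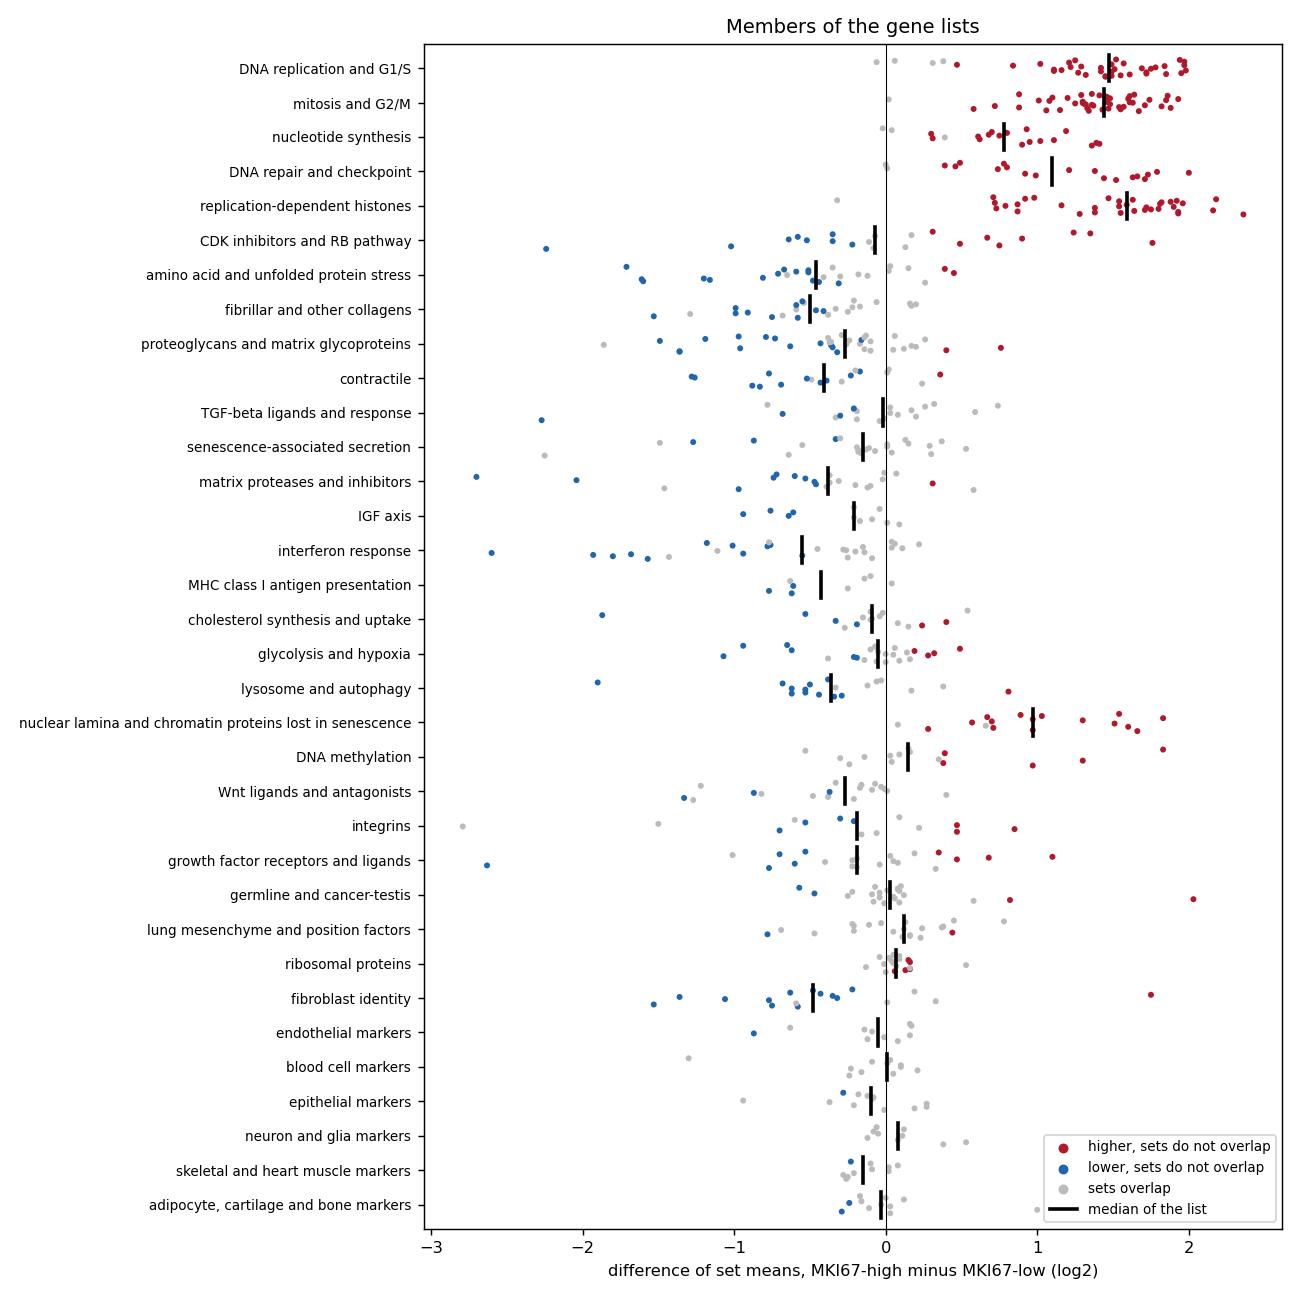
Difference between the set means, MKI67-high minus MKI67-low (log2), for each measured member of 34 gene lists, 1 point per gene, with the list's median as a black bar. Red and blue points are genes whose 4 and 4 arrays do not overlap, and grey points overlap. Medians reach 1.59 for replication-dependent histones, against -0.55 for the interferon response.

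The fibroblast markers were bright in every array, with list medians of 11.98 to 12.30 over the 14 arrays, and those of other cell types were lower: 6.64 to 6.94 for endothelium, 6.22 to 6.59 for blood, 6.75 to 7.38 for epithelium, 6.83 to 7.85 for neurons and glia, 6.84 to 7.58 for muscle, and 7.17 to 7.55 for fat, cartilage and bone. The table has no detection calls, so whether a dim marker was absent is unknown. Single markers were brighter, above 9 in all 8 arrays: TEK, CD68, KRT8, KRT18 and ACTA1, the last 4 with overlapping sets. The endothelial receptor TEK read 9.76, 9.74, 9.53 and 9.36 in the MKI67-high arrays and 10.15, 10.23, 10.76 and 10.73 in the MKI67-low arrays, a difference of -0.87. It is the endothelial gene counted as lower below. Without overlap 0 of the markers of other cell types were higher, and 1 of 10 endothelial, 0 of 11 blood, 1 of 12 epithelial, 0 of 9 neural, 1 of 10 muscle and 2 of 11 of the last list were lower. Their medians were -0.05, 0.01, -0.10, 0.08, -0.15 and -0.03. Summed levels overlapped between the sets for these 6 lists, and not for the fibroblast list, where they ran from 197.1 to 199.0 in the MKI67-high arrays and from 204.0 to 206.0 in the MKI67-low arrays. Of its 17 genes 12 were lower and 1 higher, with a median of -0.48. Vimentin, from VIM, differed by 0.01, THY1 by -1.06, and S100A4 was the higher gene, by 1.75, with steps of 2.30 within the MKI67-low set, 0.77 between the sets and -0.35 within the MKI67-high set.

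Of the 15 largest differences each way, ADAMTS5, PDGFD, IFITM1, H1-1 and H4C4 belong to the lists above, and the others are in none. ELAPOR2, a membrane protein, read 11.22, 11.14, 10.55 and 10.44 in the MKI67-high arrays and 5.85, 5.83, 7.72 and 7.56 in the MKI67-low arrays, 17.1-fold higher, with a step of 3.54 between the sets. In the other 6 arrays it lay between 5.31 and 6.72, so the MKI67-high level was seen nowhere else. GCNT2, which branches lactosamine chains, read 9.22, 9.13, 9.55 and 9.37 in the MKI67-high arrays and 7.16, 7.23, 6.46 and 6.59 in the MKI67-low arrays, with a step of 2.65 between the sets. CNIH3, an auxiliary protein of glutamate receptors, stepped by 2.57 there, GABRB1, a subunit of the GABA-A receptor, by 1.83, and CMKLR1, the receptor of chemerin, by 1.76.

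Other large differences lay mainly within the MKI67-low set. RTN1, a reticulon of the endoplasmic reticulum, read 10.16, 10.06, 10.52 and 10.48 in the MKI67-high arrays and 5.55, 5.63, 9.33 and 9.22 in the MKI67-low arrays. HHIP, which binds hedgehog ligands, read 10.42, 10.26, 10.04 and 10.12 in the MKI67-high arrays and 6.03, 5.69, 9.41 and 9.34 in the MKI67-low arrays. In both genes the second MKI67-low pair was nearer the MKI67-high set than its own partner pair. The amino acid transporter SLC38A5 stepped by 3.63 within the MKI67-low set and 0.67 between the sets, GALNT3, which starts O-glycans, by 3.43 and 0.45, and LPXN, a focal adhesion adaptor, by 2.85 and 0.89. BCHE, for butyrylcholinesterase, and CLGN, a chaperone, stepped most within the MKI67-high set, by 2.55 and 1.39. SLCO1B3, a transporter of organic anions with a near-identical neighbour, stepped by 1.62 both between the sets and within the MKI67-high set.

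Among the lower genes MAN1A1 came first. This Golgi mannosidase, which trims N-glycans, read 6.74, 6.59, 6.14 and 5.92 in the MKI67-high arrays and 10.41, 10.45, 10.00 and 9.90 in the MKI67-low arrays, 14.3-fold lower. Outside the sets it lay between 9.15 and 9.70, so the low level belonged to the 4 MKI67-high arrays. BST1, an enzyme of the cell surface that makes cyclic ADP-ribose, read 6.47, 6.52, 6.13 and 6.23 in the MKI67-high arrays and 9.03, 9.10, 9.34 and 9.34 in the MKI67-low arrays, and 8.75 to 9.49 outside the sets. The transcription factor SOX4 stepped by -2.20 between the sets, the cofactor LBH by -1.91, and ADH1C, one of several near-identical alcohol dehydrogenases, by -2.66.

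Genes with an even or early descent were also among the 15 largest. MGARP, a mitochondrial protein, stepped by -1.64, -1.42 and -1.59, in 3 nearly equal parts. LITAF, of the lysosomal membrane, read 8.06, 8.19, 6.26 and 6.21 in the MKI67-high arrays and 11.20, 11.19, 8.96 and 8.93 in the MKI67-low arrays. HTATIP2, an oxidoreductase, stepped by -1.67, -1.50 and -0.94, and CYBA, a subunit of NADPH oxidase, by -1.84 and -1.81 before it levelled. PDE1C, a phosphodiesterase activated by calmodulin, stepped by -3.04 within the MKI67-low set.

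In 2 of these genes the second MKI67-low pair read near the MKI67-high arrays and far below the first MKI67-low pair. AMZ2P1, a pseudogene of a metallopeptidase, read 6.45, 6.17, 6.07 and 6.48 in the MKI67-high arrays and 12.13, 12.22, 6.79 and 6.71 in the MKI67-low arrays. PCDHB5, a clustered protocadherin, read 5.57, 6.13, 5.68 and 5.66 in the MKI67-high arrays and 9.91, 10.99, 6.20 and 6.20 in the MKI67-low arrays. Outside the sets, AMZ2P1 read 12.26 in primary replicate 2, 12.27 in A39 replicate 1 and 11.96 in B96 replicate 2, and 5.79 to 6.43 elsewhere. PCDHB5 read 10.58 in primary replicate 2 and 10.80 in A39 replicate 1, and 5.86 to 6.75 in the other outside arrays. Both genes belong to families of similar sequences, so the rows may hold signal of related copies. ITGA8, an integrin singled out after its values were seen, read 5.41, 5.41, 5.08 and 5.41 in the MKI67-high arrays and 10.92, 10.87, 5.19 and 5.48 in the MKI67-low arrays, and the sets overlap. TERT differed in the same place: 12.18 and 11.98 in the first MKI67-low pair, 10.67 and 10.77 in the second, and 11.04 to 11.29 in the MKI67-high arrays, a set difference of -0.23 with overlap.

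**Figure D5:**
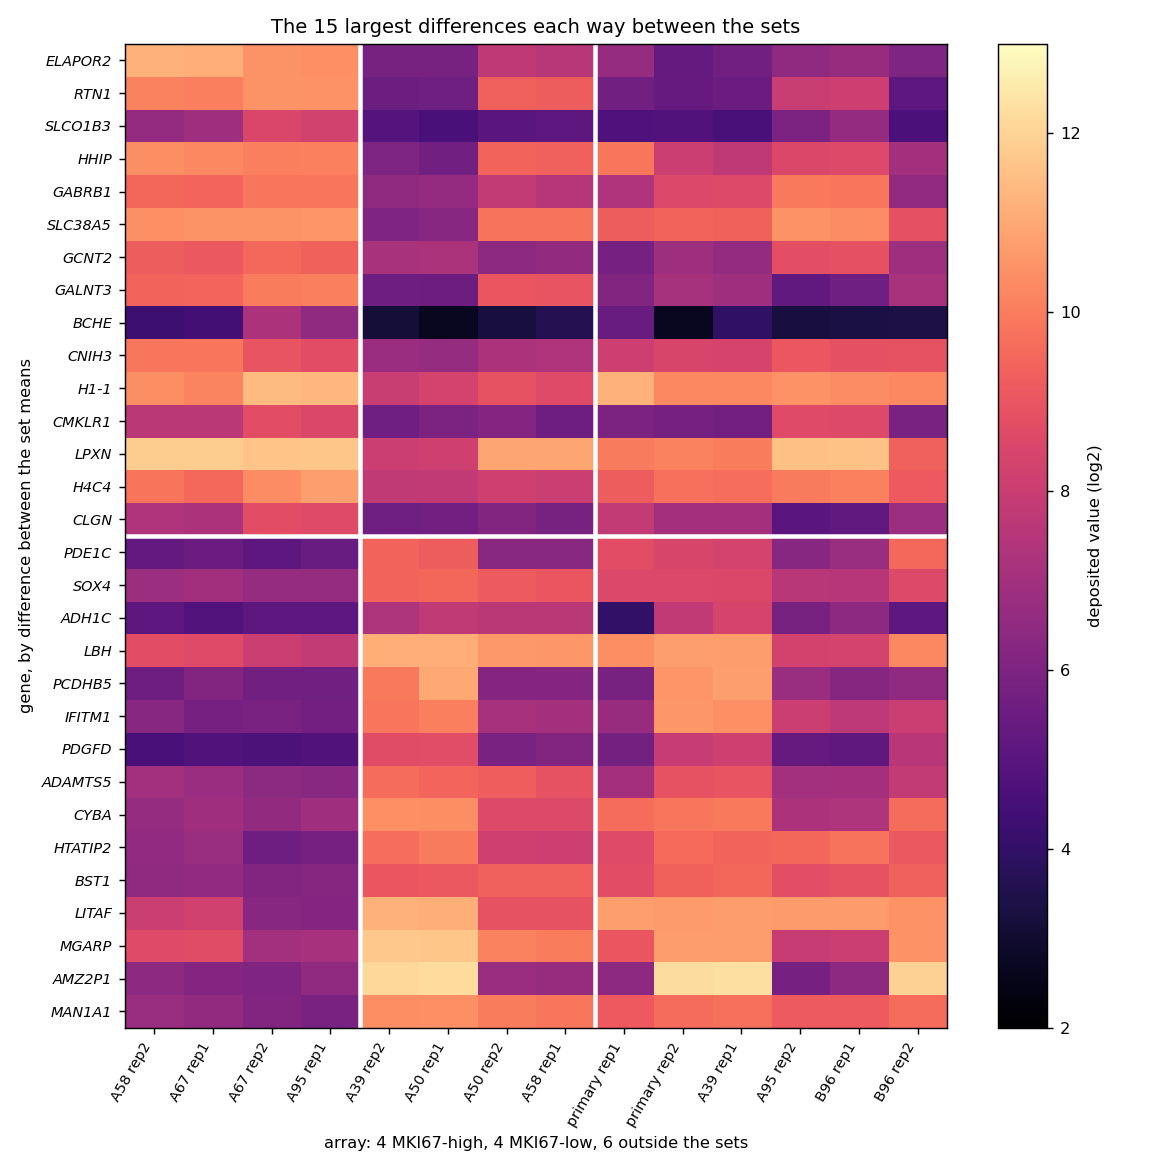
Deposited log2 value of the 15 genes with the largest positive and the 15 with the largest negative difference between the sets, by array, with the MKI67-high arrays left, the MKI67-low arrays next and the 6 arrays outside the sets right. ELAPOR2 reaches 10.44 to 11.22 and MAN1A1 drops to 5.92 to 6.74 in the 4 MKI67-high arrays. AMZ2P1 is high in 1 MKI67-low pair, at 12.13 and 12.22. Outside the sets it is high in primary replicate 2, A39 replicate 1 and B96 replicate 2, at 11.96 to 12.27.

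The 6 arrays outside the sets took no part in the division, and most marker levels there lay between the sets. MCM10 ran from 8.71 to 9.29, against 9.29 to 10.23 in the MKI67-high and 7.77 to 7.94 in the MKI67-low arrays. The replication list deviated by -0.07 to 0.28 in these arrays, against 0.33 to 0.97 in the MKI67-high arrays and -0.84 to -0.66 in the MKI67-low arrays. CDKN2A ran from 7.79 to 9.29 and CDKN1A from 10.68 to 11.16, both below every MKI67-low array. Some of these values lay inside the MKI67-high range. For CDKN2A they were A95 replicate 2 and B96 replicate 1, at 7.84 and 7.79. For CDKN1A they were primary replicate 1, A95 replicate 2 and B96 replicate 1, at 10.75, 10.68 and 10.78. The interferon list ran from -0.72 to 0.86, the widest of the lists described, with primary replicate 2 and A39 replicate 1 high, at 0.86 and 0.75, and primary replicate 1 lowest, at -0.72. MKI67 read 10.28 and 10.13 in the first 2 of these, the lowest of the 6, and 10.74 in primary replicate 1, the highest.

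In 1 comparison, A67 against A50, the groups came from the labels alone. It was chosen because these labels lie whole in the MKI67-high and the MKI67-low set. Its 4 arrays also entered the division, so it is no independent support, and each of them comes from a different close pair. The genes given for it were picked by their set difference or as markers, and MKI67 itself divided the sets. Since the labels may be displaced, the count of rows passing decides nothing about the sets. In limma's fit to all 14 arrays in 7 groups of 2, 0 of 28869 rows, 0%, passed an adjusted p of 0.05, and 2052 had an unadjusted p under 0.05. ELAPOR2 averaged 10.85 in A67 and 6.78 in A50, a difference of 4.07 ± 1.31 (SE, limma adjusted p = 0.637), and MAN1A1 6.36 and 10.22, a difference of -3.86 ± 1.04 (SE, limma adjusted p = 0.637). CDKN2A differed by -2.29 ± 0.61, CDKN1A by -1.07 ± 0.26, MCM10 by 1.84 ± 0.50 and MKI67 by 1.58 ± 0.49 (SE), each at the same adjusted p. For AMZ2P1 the difference of -3.38 ± 2.13 (SE) had a limma adjusted p of 0.871. Arrays that share a label differ widely here, and that spread enters every error. The labels call the duplicates biological, and the p-values measure only the spread between arrays of a label.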

How the data were processed

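Per the labels' protocols, RNA was extracted with TRI reagent, amplified with a whole transcript kit and hybridized to Affymetrix human Gene ST 1.0 arrays. The table that the authors deposited holds log2 values in 28869 rows. The treatment of background and scale was not given in the sources used here. Precision is limited by the number of arrays, whose medians ran from 7.26 to 7.48.

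Rows were named from the platform annotation through RefSeq gene IDs. There was 1 symbol for 19310 rows, several for 1752 and none for 7807, and the brightest row of a gene stood for it. Set means were compared without a test. A67 minus A50 was fitted with limma 3.58.1 in R 4.3.3 (lmFit, eBayes, two-sided, Benjamini-Hochberg over all rows). Both steps were tested on simulated data. Members and gene lists were chosen with earlier results of these data known. Named genes were the 15 largest differences each way without overlap, up to 4 such members per list, and a list of markers. The results of 1 gene list are not reported here. Other list members were named after their values were seen. Alternatives were other scalings, a filter on dim rows, the summary of a gene's rows, a replicate block and leaving out arrays.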

Additional observations from a re-analysis of the deposited data

Results flagged for a closer look

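Each of the 150 named genes was checked in both sets of 4 arrays for a single array whose distance to its nearest neighbour exceeded 0.829 of the set's range. For 4 independent values chance flags about 1 in 20 groups, and 9 of 300 were found. The arrays of a set form close pairs, so that rate cannot be set against the 9. In the MKI67-high set, BGN was high in A58 replicate 2, at 8.65, MMP2 low in A67 replicate 1, at 10.43, and SFRP1 low in the same array, at 11.82. MAP1LC3B was high in A58 replicate 2, at 7.96. DES was high, at 7.32, and COL2A1 low, at 7.17, in A67 replicate 2. In the MKI67-low set, ADM was low in A58 replicate 1, at 11.87, FGF9 low in A39 replicate 2, at 6.38, and PLIN1 low in A50 replicate 2, at 7.29. Their causes were not tested.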

How the results depend on the processing

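Leaving out each array in turn gave 455 to 559 rows higher by at least 1 log2 and 289 to 367 lower, against 506 and 322, where fewer arrays overlap less by construction. A minimum of 0.5 log2 gave 1304 and 1277 rows. Without both arrays labelled A58, a choice made after the data were seen, the counts were 570 and 404, and the medians moved to -0.475 for matrix proteases, -0.415 for lysosome genes, -0.593 for fibroblast markers and -0.04 for muscle markers. Centring array medians gave -0.008 for glycolysis, -0.312 for lysosome genes and 0.114 for ribosomal proteins. The filter on dim rows gave -0.347 for proteoglycans, -0.239 for senescence-associated secretion and -0.465 for matrix proteases. Leaving out 1 array gave medians of -0.067 to 0.050 for kinase inhibitors and the RB pathway, -0.178 to 0.051 for TGF-beta, -0.457 to -0.346 for matrix proteases, -0.412 to -0.304 for lysosome genes, -0.022 to 0.151 for neural markers and -0.125 to 0.007 for markers of fat, cartilage and bone. The median crossed 0 as well for glycolysis, at -0.071 to 0.006, and for growth factors, at -0.195 to 0.012, in both cases without A39 replicate 2, and the cause was not tested. The other values, 432 of 455 list medians, moved by less than the spread between arrays, as did 1787 of 1793 values of named genes, and 0 named genes reversed.

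With the replicate block, 0 rows were called in A67 minus A50, and 1752 had an unadjusted p under 0.05 in limma. Arrays of the same number there deviated together with a correlation of 0.196, a single value, and the labels say nothing of pairing. The count of 0 held in all 12 settings, with the smallest adjusted p, 0.0965, from limma on the 4 arrays alone. Dim rows have no detection calls, so differences near the lowest levels are the least certain.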

Other observations

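Position along the chromosomes was a further property that took no part in the gene lists. On chromosome 19, of 1306 genes 205 were lower, or 15.7%, and 107 higher, or 8.19%, in the MKI67-high set without overlap, against 13.2% and 12.9% of all genes. On chromosome 6, which holds the large histone cluster, 118 of 976 genes were lower, or 12.1%, and 161 higher, or 16.5%. The median difference of each chromosome lay between -0.057 and -0.005.

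Runs of 31 neighbouring genes, histones left out, with a mean above 7 log2 over the 8 arrays were also read, and the most extreme of 11865 windows was taken for each step, so these values were chosen for their size. At the step between the sets it was the stretch from ZNF613 to OSCAR on chromosome 19, with a median of -0.29 and 25 of 31 genes negative. Its genes deviated by -0.22 to -0.11 in the MKI67-high arrays and by 0.09 to 0.22 in the MKI67-low arrays, and by -0.55 in A95 replicate 2 and -0.34 in B96 replicate 1. Within the MKI67-low set it was the stretch from MRPL58 to EXOC7 on chromosome 17, with a median of 0.26 and 24 of 31 genes positive. No test was made of either.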
